A study of Mus musculus with 18 samples.

Results

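Retinoic acid, a derivative of vitamin A, is made from retinol by a first oxidation to retinal, carried out in the embryo mainly by RDH10, and a second oxidation to retinoic acid by the ALDH1A enzymes. Inside the cell it is carried by the binding proteins CRABP1 and CRABP2, it acts on nuclear receptors of the RAR family paired with receptors of the RXR family, and it is broken down by the CYP26 enzymes. In the cortex it is known for roles in neuron differentiation and synaptic plasticity, and cells that make it and cells that destroy it lie side by side. Of 24015 genes in a count table of sorted cortical neurons, 9 are described here: Cyp26b1 (breakdown), Rdh10 and Aldh1a3 (synthesis), Crabp1 and Crabp2 (binding), and the receptor genes Rara, Rarb, Rxra and Rxrg. They were taken by function from the rows of that table and selected on their counts in the 3 groups, which were known.  The levels and fold changes of these 9 genes in any comparison are therefore a description, not a test.

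All groups are mouse cortical neurons at postnatal day 5, sorted as tdTomato-positive cells, about 25000 per sample. The groups hold 4 libraries each: wild-type layer 6 (WT L6), layer 6 with the genotype label "Tbr1 Layer 6 Null" (null L6) and wild-type layer 5 (WT L5). TBR1 belongs to the T-box transcription factors and marks deep cortical layers, and the series title asks how its dose in the newborn affects layer 6 connections. The genotype label speaks of a layer 6 null while the series design speaks of a constitutive one. What drives tdTomato, the mouse strain and which part of Tbr1 is deleted were not stated in the labels used. The WT L6 and null L6 libraries form sequencing batch A, and WT L5 replicates 1 and 2 form batch B and replicates 3 and 4 batch C, so layer and batch cannot be told apart.

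Library totals ran from 27465597 to 54899002 counts. Tbr1 stood at 169 to 182 CPM (depth-normalised counts, on library sizes scaled by the TMM method) in WT L6, 91.6 to 97.4 in null L6 and 40.2 to 45.7 in WT L5. Libraries came in closer pairs, 1 with 2 and 3 with 4 in both layer 6 groups, with a chi-square per degree of freedom of 3.21 to 10.4 within and 10.6 to 59.4 across pairs. In WT L5 the closer pairs were 1 with 3 and 2 with 4, across its batches, at 1.33 to 1.39 within and 2.94 to 3.35 across pairs. Whether a pair is 1 sample sequenced again was not tested. WT L6 replicates 1 and 2 had almost no Xist, the RNA of the inactive X chromosome, with a group range of 0.455 to 291 CPM, against 260.2 to 300.1 CPM in null L6 and 39.05 to 40.65 CPM in WT L5. The ribosomal precursor Rn45s ran from 3843 to 7232 CPM in WT L6, 5917 to 26660 CPM in null L6 and 12140 to 12520 CPM in WT L5. Nothing states that replicates are separate animals, so errors cover the spread between these libraries, which may be technical. Against its label, the summed level of 10 layer 5 neuron markers was 350.3 to 359.7 CPM in WT L5, below the 589 to 653 CPM of WT L6. Of these 10, 7 were called lower (rule given below) and 2 higher in WT L5, beside 43.4% and 42.2% of all genes. The 2 higher were Deptor, at means of 6.11 against 1.89 CPM, and Pcp4, at 35.1 against 20.4 CPM. The 14 astrocyte markers summed to 6479 to 6500 CPM in WT L5 against 1096 to 1239 CPM in WT L6. The 13 layer 6 and subplate markers summed to 919 to 941 CPM in WT L6, 655 to 708 CPM in null L6 and 481 to 495 CPM in WT L5.

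Cyp26b1, whose product removes retinoic acid, showed the widest gap of the 9 genes between null L6 and WT L6. WT L6 replicates 1 to 4 had 19.5, 18.6, 14.1 and 13.9 CPM. The null L6 libraries had 1.14, 1.41, 1.66 and 2.51 CPM, resting on 54 to 106 counts each. WT L5 libraries had 24.6, 26.0, 25.7 and 25.5 CPM. No group overlapped another, and the order was null L6, WT L6, WT L5. The log2 fold change of null L6 against WT L6 was -3.30 ± 0.197 (SE from edgeR's quasi-likelihood fit), a 9.88-fold lower level, and that of WT L5 against WT L6 was 0.62 ± 0.097. Since each library mixes many sorted cells, fewer cells of a type and less RNA per cell cannot be told apart.

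Within WT L6 the Cyp26b1 level also followed the library pairs, with a mean of 19.1 CPM in replicates 1 and 2, which have almost no Xist, and 14.0 CPM in replicates 3 and 4. In null L6 the pair means were 1.27 and 2.08 CPM. The null L6 fold change was -3.51 with that WT L6 pair alone and -3.07 with the other WT L6 pair alone, and it was -3.70 and -2.98 with null L6 replicates 1 and 2 or 3 and 4 alone. The gap between the genotypes was thus wider than the gap between pairs in each of these settings. Marker sums also differed between the WT L6 pairs. For replicates 1 to 4, astrocyte markers summed to 1239, 1228, 1099 and 1096 CPM, and 9 Cajal-Retzius cell markers to 670, 700.3, 614 and 609 CPM. Layer 5 markers ran the other way, at 589, 595.5, 653 and 647 CPM. What sets the pairs apart was not tested.

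**Figure D1:**
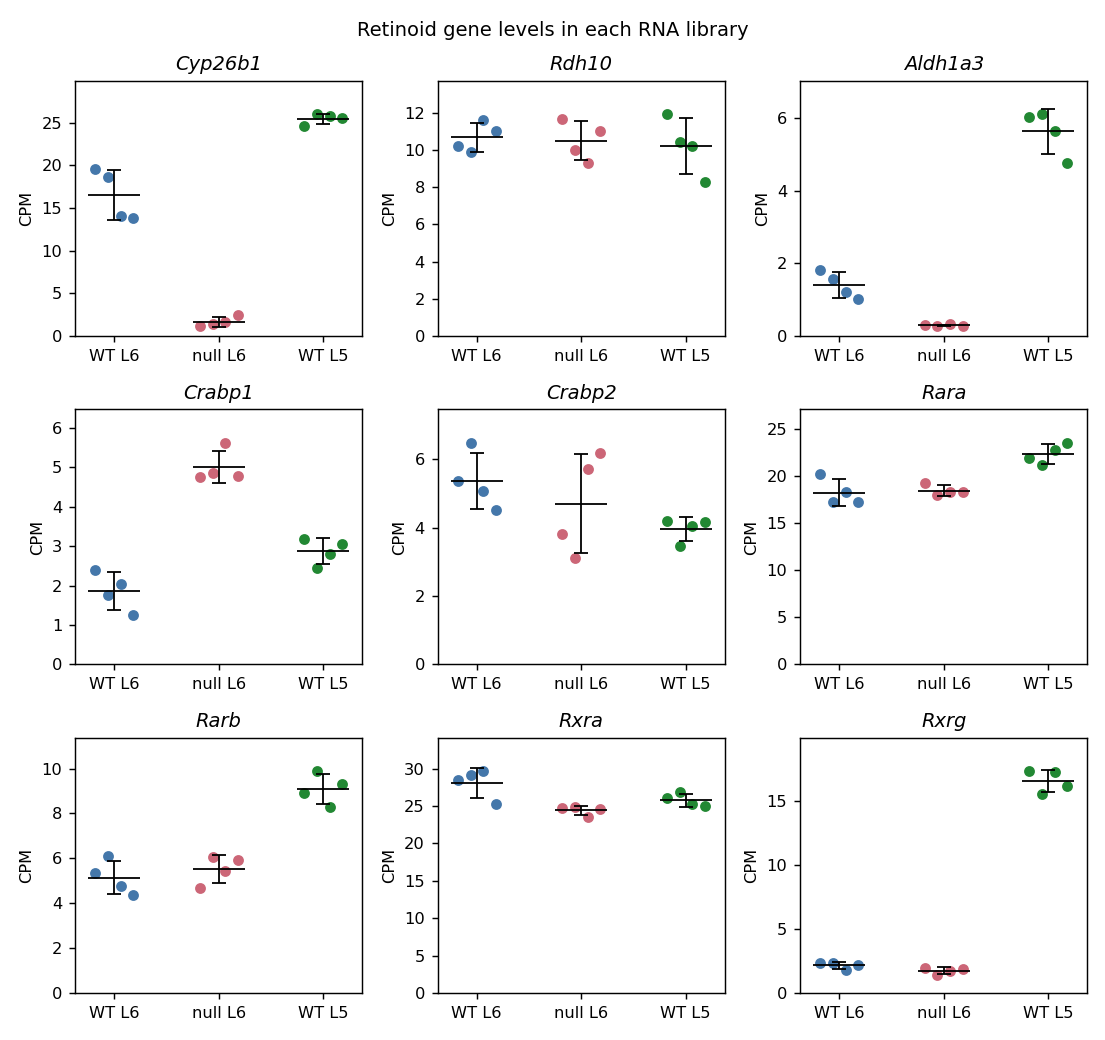
Levels of the 9 retinoid genes in CPM (vertical axis, linear, from 0) in the 4 libraries of WT L6, null L6 and WT L5; points are libraries, lines means and bars SD. Cyp26b1 and Aldh1a3 are lowest in all 4 null L6 libraries, Crabp1 is highest there, and Rxrg stands apart in WT L5 at 15.6 to 17.3 CPM.

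The enzyme genes of synthesis differed from each other. Aldh1a3, which encodes a retinal dehydrogenase that makes retinoic acid, had 1.83, 1.58, 1.20 and 1.01 CPM in WT L6. In null L6 it had 0.294, 0.286, 0.317 and 0.285 CPM, which is 12 to 14 counts per library. In WT L5 it had 6.04, 6.11, 5.65 and 4.76 CPM. The groups were in the same order as for Cyp26b1 and did not overlap. The log2 fold change was -2.23 ± 0.269 for null L6 against WT L6, 2.02 ± 0.172 for WT L5 against WT L6 and -4.25 ± 0.174 for null L6 against WT L5.

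Rdh10, which encodes the retinol dehydrogenase of the first step, did not separate any groups. Its CPM were 10.2, 9.91, 11.6 and 11.1 in WT L6, 11.7, 10.03, 9.30 and 11.03 in null L6, and 11.9, 10.4, 10.2 and 8.30 in WT L5. The 3 ranges overlapped, and the log2 fold changes were -0.03 ± 0.086 for null L6 against WT L6 and -0.06 ± 0.097 for WT L5 against WT L6.

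Crabp1, which encodes a cytosolic protein that binds retinoic acid, was the one gene of the 9 that stood higher in null L6 than in both other groups. WT L6 libraries had 2.39, 1.76, 2.03 and 1.247 CPM. Null L6 libraries had 4.75, 4.86, 5.62 and 4.79 CPM. WT L5 libraries had 3.19, 2.46, 2.79 and 3.06 CPM. The order was WT L6, WT L5, null L6 with no overlap, although the highest WT L6 library at 2.39 CPM lay close to the lowest WT L5 library at 2.46 CPM. The log2 fold change of null L6 against WT L6 was 1.43 ± 0.175 and that of null L6 against WT L5 0.80 ± 0.122. Marker sums of other neuron classes differed in null L6 as well. The 12 progenitor and newborn neuron markers summed to 1149 to 1180 CPM against 1042 to 1054 CPM in WT L6, and the 10 layer 5 markers to 728 to 819.8 CPM against 589 to 653 CPM. The 13 striatal projection neuron markers summed to 378 to 394.5 CPM against 354 to 367 CPM, and 18 interneuron markers were lower, at 518 to 526 CPM against 561 to 575 CPM. In the progenitor, layer 5, striatal and interneuron lists, 6 of 11, 4 of 10, 4 of 10 and 1 of 17 tested genes were called higher. In the same order, 0, 1, 2 and 6 were called lower, beside 7.31% higher and 6.86% lower of all genes. The mean striatal sum went from 361 to 388 CPM, and Foxp1 alone rose from a mean of 147 to 188 CPM. The rise of that sum thus rests on Foxp1, without which it would be lower in null L6. Drd2, Penk and Rgs9 were also called higher, from 0.369 to 2.09, 2.46 to 4.62 and 17.3 to 22.05 CPM. Pde10a fell from 158.5 to 140 CPM and Ppp1r1b from 20.4 to 17.02 CPM. No marker of these lists was at 0 in either group, and their part in the Crabp1 level was not tested.

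Crabp2, the paralog that hands retinoic acid to the receptors in the nucleus, had 5.37, 6.48, 5.08 and 4.52 CPM in WT L6. Null L6 split by library pair, with 3.83 and 3.12 CPM in replicates 1 and 2 and 5.70 and 6.17 CPM in replicates 3 and 4. The first pair lay below all WT L6 libraries and the other pair within their range. WT L5 had 4.18, 3.45, 4.06 and 4.17 CPM. The log2 fold change of null L6 against WT L6 was -0.19 ± 0.196 over all libraries, -0.62 with null L6 replicates 1 and 2 alone and 0.16 with replicates 3 and 4 alone. WT L5 lay below every WT L6 library, at -0.43 ± 0.124. The 12 meningeal fibroblast markers, a list that holds Aldh1a2 and Foxc1, split the same way in null L6: they summed to 637.2 and 649.6 CPM in replicates 1 and 2 and to 849 and 860 CPM in replicates 3 and 4, against 857 to 922 CPM in WT L6. In WT L5, where Crabp2 lay below WT L6, the same markers summed to 1131 to 1155 CPM, above WT L6. Of the 12, 5 were called higher and 5 lower in WT L5 than in WT L6, beside 42.2% and 43.4% of all genes. None of these markers was at 0, and their part in the Crabp2 level was not tested.

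The RAR genes encode the receptors that bind retinoic acid itself. Rara had 20.2, 17.2, 18.3 and 17.2 CPM in WT L6, 19.2, 17.96, 18.2 and 18.3 in null L6 and 21.9, 21.1, 22.7 and 23.5 in WT L5. Both layer 6 groups overlapped and WT L5 lay above them, with a log2 fold change of 0.28 ± 0.062 against WT L6 and 0.02 ± 0.062 for null L6 against WT L6. Rarb had 5.33, 6.09, 4.78 and 4.36 CPM in WT L6 and 4.69, 6.07, 5.45 and 5.93 CPM in null L6, and 8.92, 9.89, 8.31 and 9.29 CPM in WT L5. The log2 fold change of null L6 against WT L6 was 0.11 ± 0.125, and that of WT L5 against WT L6 was 0.83 ± 0.106. Null L6 stood below WT L5 in both genes, at -0.27 for Rara and -0.72 for Rarb.

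Rarb is itself a classical retinoic acid target, through a DR5 element near its start, a direct repeat of the receptor motif with 5 bases between. Promoter sequences from RefSeq (build GRCm38.p6) were at hand for 6 of the 9 genes (Cyp26b1, Crabp1, Rara, Rarb, Rxra and Rxrg), and the 250 bases before each listed start were searched on both strands for DR5, DR2 and DR1 elements, for the single receptor motif AGGTCA and for the T-box motif GGTGTGA. In the DR elements each repeat could start with A or G and hold G or T in position 3. Shown are Rarb, whose level bears on the element, Cyp26b1, the gene with the widest gap, and the second listed start of Rxra, where motifs of both kinds occur. All run 5′ to 3′ on the gene's strand, with matches in capitals.
Rarb, chr14:16575477-16575726, minus strand: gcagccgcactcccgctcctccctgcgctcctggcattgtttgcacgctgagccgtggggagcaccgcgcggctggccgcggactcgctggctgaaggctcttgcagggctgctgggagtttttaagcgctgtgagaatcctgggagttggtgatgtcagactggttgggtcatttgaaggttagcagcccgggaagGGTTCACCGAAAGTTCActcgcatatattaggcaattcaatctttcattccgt
Cyp26b1, chr6:84593811-84594060, minus strand: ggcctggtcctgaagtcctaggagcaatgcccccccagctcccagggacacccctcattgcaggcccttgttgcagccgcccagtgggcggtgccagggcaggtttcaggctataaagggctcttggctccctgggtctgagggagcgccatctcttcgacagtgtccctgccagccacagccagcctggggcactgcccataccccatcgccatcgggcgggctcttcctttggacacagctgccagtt
Rxra, chr2:27709042-27709291, plus strand: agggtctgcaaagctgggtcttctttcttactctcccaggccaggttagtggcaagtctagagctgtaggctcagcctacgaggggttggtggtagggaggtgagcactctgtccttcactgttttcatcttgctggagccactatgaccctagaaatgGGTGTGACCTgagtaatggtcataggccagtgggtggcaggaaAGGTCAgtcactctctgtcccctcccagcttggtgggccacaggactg
In Rarb the capitals are a DR5 element, 53 to 37 bases before the start, a match found in 0.0883% of 32851 promoters of this length. No searched motif lies in the Cyp26b1 window. In the Rxra window AGGTCA occurs 48 to 43 bases before the start and, on the other strand, 87 to 82 bases before it, where it overlaps GGTGTGA at 91 to 85 bases. AGGTCA was in 14.0% and GGTGTGA in 3.33% of all promoters, and the shorter T-box core GGTGTG, which lies inside each GGTGTGA match here, in 16.3%. DR2 and DR1 elements, with 2 bases or 1 base between the repeats, were in 0.174% and 0.164% of all promoters and in none of these windows. Of the other windows, 3 of the 4 Rara starts held GGTGTGA, of which 2 overlap and share the match, and 1 of the 2 Rxrg starts held AGGTCA. A match describes letters and not binding.

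The RXR genes encode the shared partners of many nuclear receptors. Rxra had 28.4, 29.1, 29.6 and 25.2 CPM in WT L6, 24.7, 24.9, 23.5 and 24.6 CPM in null L6 and 26.0, 26.8, 25.2 and 24.97 CPM in WT L5. All null L6 libraries lay below all WT L6 libraries, the closest being 24.9 and 25.2 CPM, with a log2 fold change of -0.20 ± 0.056. Rxra passed the threshold for a call (below) in that comparison and in 7 of its 20 alternatives. WT L5 overlapped WT L6, and the call in that comparison held in 6 of 20 alternatives.

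Rxrg, the third RXR gene and one restricted to few brain regions, was at 2.35, 2.36, 1.77 and 2.19 CPM in WT L6 and 1.96, 1.41, 1.73 and 1.90 CPM in null L6. WT L5 had 17.3, 15.6, 17.3 and 16.2 CPM, far above both. The layer 6 groups overlapped, with a log2 fold change of -0.31 ± 0.169, and WT L5 against WT L6 gave 2.94 ± 0.094, a 7.65-fold higher level. Beside it, the sum of 12 oligodendrocyte lineage markers was 1237 to 1249 CPM in WT L5 and 281 to 293 CPM in WT L6, and that of 13 striatal projection neuron markers 399 to 422 CPM and 354 to 367 CPM. Of these lists 11 of 11 and 8 of 11 tested genes were called higher in WT L5 and 0 and 2 lower, beside 42.2% of all genes higher and 43.4% lower. None was at 0 in these groups, and their part in the Rxrg level was not tested.

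A gene was called when its Benjamini-Hochberg adjusted p over all genes tested was under 0.05 in edgeR's quasi-likelihood test. Between null L6 and WT L6, 4 of the 9 genes were called, Cyp26b1, Aldh1a3 and Rxra lower and Crabp1 higher, where 14.2% of 14588 genes were called (7.31% higher, 6.86% lower). The same 4 genes were those whose groups did not overlap, where 19.9% of all genes did not. Between WT L5 and WT L6, 8 of the 9 were called, 6 higher and 2 lower, with Rdh10 the exception, where 85.5% of 14927 genes were called (42.2% higher, 43.4% lower), and 7 did not overlap, where 81.2% of all genes did not. Between null L6 and WT L5, 6 of the 9 were called, 5 lower and 1 higher, where 84.3% of 15013 genes were called (42.4% higher, 41.8% lower), and 7 did not overlap, where 79.9% of all genes did not. The comparisons share libraries, and since the counts were known when the genes were chosen, nothing is read from these shares. The median log2 fold change of the 9 genes was -0.19, 0.62 and -0.27 in the 3 comparisons, beside -0.01 to 0.00034 over all genes tested.

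**Figure D2:**
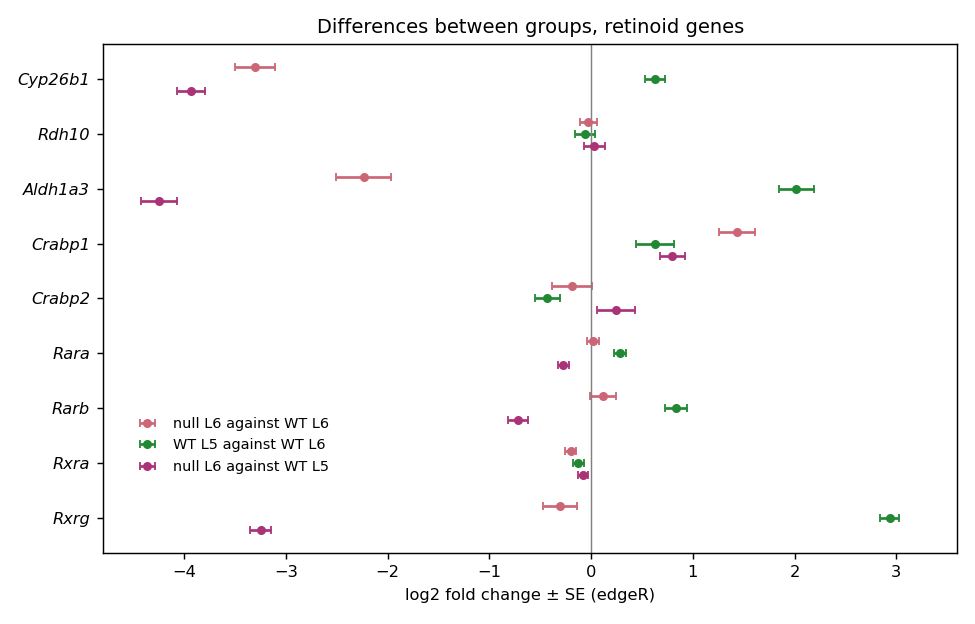
Log2 fold changes (horizontal axis) with SE bars from edgeR for the 9 retinoid genes in 3 comparisons that share libraries. Cyp26b1 and Aldh1a3 have their points for null L6 at -3.30 and -2.23 against WT L6 and at -3.93 and -4.25 against WT L5, and Rdh10 lies at 0 within its error in all 3.

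The differences of WT L5 were also computed within each of its batches. Against WT L6, Cyp26b1 had a log2 fold change of 0.61 with batch B libraries alone and 0.63 with batch C libraries alone, Aldh1a3 had 2.12 and 1.89, Rarb 0.87 and 0.78, and Rxrg 2.92 and 2.94. Crabp1 had 0.60 and 0.65, Crabp2 -0.48 and -0.38, Rara 0.23 and 0.33, and Rxra -0.09 and -0.17. Neither batch holds layer 6 libraries, and each batch C library is closest to a batch B library, so both values may rest on the same samples.

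The rest of the retinoid pathway, 50 further genes of synthesis, transport, breakdown and receptor action, gave calls at about the rate of all genes between null L6 and WT L6. Of 34 that passed the filter on low counts, 2 rose and 3 fell, and 29 were not called, at a median log2 fold change of -0.03. These 5 of 34 stand beside 14.2% called among all genes. Both other breakdown genes, Cyp26a1 and Cyp26c1, stayed below that filter in every comparison, with group means of at most 0.0576 CPM.

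Among the dehydrogenase and reductase genes, 2 of 11 tested fell and 0 rose, beside 6.86% and 7.31% of all genes. Dhrs3, which encodes a reductase that turns retinal back into retinol and is induced by retinoic acid, fell from 13.2 ± 1.20 CPM (SD, n = 4) in WT L6 to 8.79 ± 1.53 CPM in null L6, a log2 fold change of -0.59 ± 0.116 (edgeR adjusted p = 0.00393). Aldh1a2, the retinoic acid-making enzyme of the meninges, had 19.8 ± 3.23 and 15.4 ± 1.68 CPM (n = 4) with overlapping groups and an edgeR adjusted p of 0.0431. Its call was lost in 10 of 20 alternatives, among them leaving out WT L6 replicate 1 or 2 or null L6 replicate 1, 2 or 3, with adjusted p from 0.0524 to 0.125 in these. The meningeal fibroblast sums given above, of which Aldh1a2 is a part, ranged from 637 to 860 CPM in null L6 against 857 to 922 CPM in WT L6. Of these 12 markers, 4 were called lower in null L6, Aldh1a2 and Foxc1 among them, beside 6.86% of all genes. Another 2 were called higher, beside 7.31%: Dcn rose from 47.1 to 63.2 CPM and Lum from 7.99 to 12.2 CPM. Aldh1a1, the third enzyme of its family, was at 2.46 ± 0.233 CPM in WT L6, 1.96 ± 0.462 in null L6 and 11.4 ± 0.387 in WT L5 (n = 4 each), and was not called between null L6 and WT L6.

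Of 6 tested genes of retinol uptake and binding, 1 rose and 0 fell, beside 7.31% and 6.86% of all genes. That gene, Rlbp1, encodes a retinal-binding protein and went from 93.6 ± 1.56 to 111 ± 2.57 CPM (n = 4 each, edgeR adjusted p = 0.000117). The astrocyte sums were 1096 to 1239 CPM in WT L6 and 1294 to 1367 CPM in null L6. Of the 14 astrocyte markers, 7 were called higher in null L6, among them Slc1a3 and Slc1a2, and 2 lower, Gja1 and Gjb6. The part of astrocytes in the Rlbp1 level was not tested. Stra6, the retinol uptake receptor, was not called at 5.51 ± 2.08 and 3.65 ± 0.516 CPM. Both remaining receptor genes, Rarg and Rxrb, were not called either, with log2 fold changes of -0.24 ± 0.087 and -0.06 ± 0.043. Of 15 receptor coregulator genes, Zfp423, a zinc finger cofactor of RAR, rose from 28.6 ± 3.90 to 40.02 ± 3.19 CPM (n = 4, edgeR adjusted p = 0.0021). Ncoa2, a coactivator, fell by 0.17 ± 0.034 on the log2 scale (edgeR adjusted p = 0.0043), and the other 13 were not called. This is 1 of 15 higher and 1 lower, beside 7.31% and 6.86% of all genes.

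**Figure D3:**
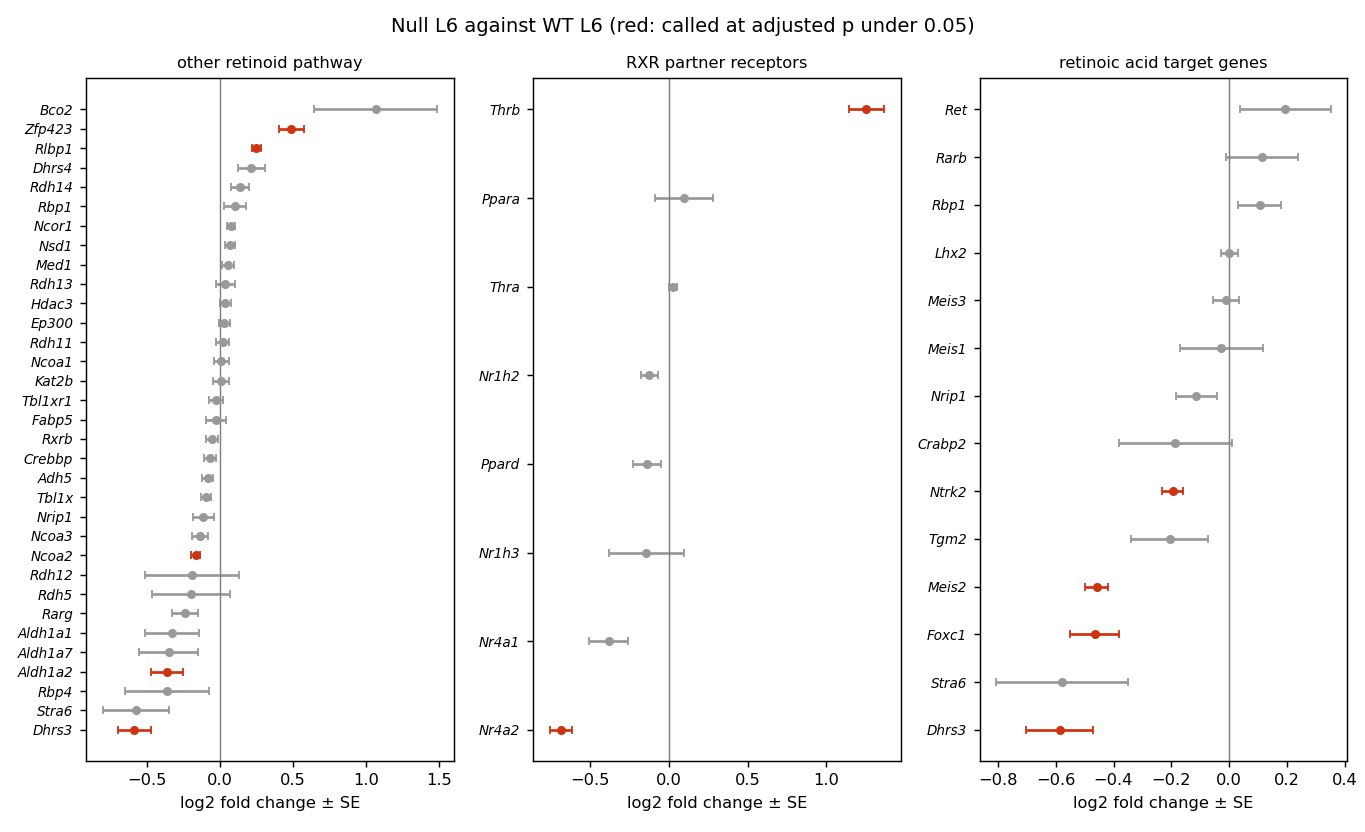
Log2 fold change of null L6 against WT L6 with SE bars (horizontal axis, edgeR) for the reported genes of 3 lists, with called genes in red. In the target list the 4 called genes shown all lie below 0, and Thrb at 1.253 and Nr4a2 at -0.68 are the called receptors of the middle list.

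Genes known to respond to retinoic acid were lower where they were called. Of 24 listed targets 15 were tested, 5 fell and 0 rose, at a median log2 fold change of -0.19, beside the 6.86% of all genes that fell. The list holds Rarb and Crabp2, described above. Meis2, a homeobox gene, fell from 234 ± 5.06 to 170.4 ± 9.96 CPM (n = 4 each), a log2 fold change of -0.46 ± 0.040 (edgeR adjusted p = 6.4e-06). Foxc1, a forkhead gene of the meninges, fell from 21.9 ± 1.44 to 15.9 ± 2.03 CPM (edgeR adjusted p = 0.00241), beside the meningeal sums and the calls in both directions given above. Ntrk2, the receptor gene for BDNF, fell by 0.20 ± 0.037 on the log2 scale, and Dhrs3, described above, is also on this list. With the library pairs summed, 2 against 2, only Meis2 was called. The 7 listed Hox genes were near or at 0, with Hoxb4 the one gene of them with any counts, at up to 0.0242 CPM in a group mean, and the classical target Cyp26a1 was below the filter.

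Receptors that share RXR as a partner included 1 that rose and 1 that fell among 8 tested, beside 7.31% and 6.86% of all genes. Thrb, a thyroid hormone receptor gene, rose from 7.22 ± 1.05 CPM in WT L6 to 17.2 ± 2.20 CPM in null L6 (n = 4 each), a log2 fold change of 1.253 ± 0.112 (edgeR adjusted p = 7.12e-06), and stood at 39.2 ± 0.302 CPM in WT L5. Nr4a2, a deep-layer and subplate gene, fell from 94.6 ± 8.06 to 58.9 ± 5.98 CPM, a log2 fold change of -0.68 ± 0.072, and stood at 13.2 ± 0.355 CPM in WT L5. Thra, the more evenly expressed thyroid hormone receptor gene, had 786 ± 8.51 and 802 ± 8.88 CPM in the layer 6 groups and was not called.

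Between the layers most genes were called, and the pathway did so too: 32 of 37 tested pathway genes were called, 19 higher and 13 lower in WT L5, beside 85.5% of all genes. Between null L6 and WT L5, 8 of 38 tested pathway genes were higher in null L6 and 20 lower, beside 42.4% and 41.8% of all genes. All 7 tested genes of retinol uptake, storage and binding were called higher in WT L5 than in WT L6, beside 42.2% of all genes. Among them, Bco2, a carotenoid-cleaving enzyme gene, had a log2 fold change of 2.84 ± 0.319, and Lrat, which esterifies retinol, had 2.40 ± 0.323. Of the dehydrogenases, Aldh1a1 had 2.20 ± 0.093, whereas Rdh11 and Rdh14 had -0.93 ± 0.050 and -1.05 ± 0.079. The edgeR adjusted p of these 5 genes was 6.55e-06 or less. The astrocyte, oligodendrocyte lineage, microglia and vascular sums were all higher in WT L5, as the plot of summed marker levels shows, and their part in these differences was not tested.

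**Figure D4:**
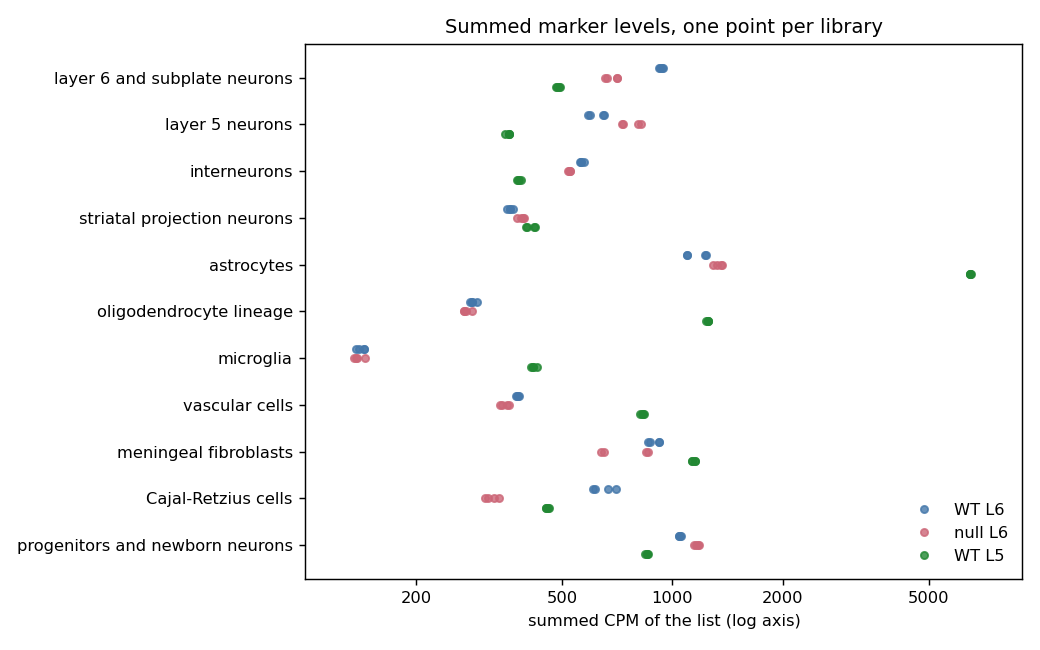
Summed CPM of each marker list (horizontal log axis), 1 point per library, for WT L6, null L6 and WT L5. WT L5 libraries stand apart with 6479 to 6500 CPM of astrocyte markers. Null L6 libraries are lowest in the Cajal-Retzius sum, at 309 to 337 CPM against 609 to 700.3 CPM in WT L6. Reln alone holds most of that sum, with means of 546 CPM in WT L6, 254 CPM in null L6 and 410 CPM in WT L5.

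The low Cyp26b1 and Aldh1a3 levels in null L6 went along with lower sums of layer 6 and subplate markers, given above, than in WT L6. The sum of 9 Cajal-Retzius cell markers was lower too (309 to 337 CPM against 609 to 700.3 CPM in WT L6). Of these lists, 7 of 12 and 6 of 9 tested genes were called lower in null L6, beside 6.86% of all genes. In each list 1 gene was called higher, beside 7.31% of all genes, and none was at 0 in either group. Reln held most of the Cajal-Retzius sums, with means of 546 CPM in WT L6, 254 CPM in null L6 and 410 CPM in WT L5. Between null L6 and WT L5, 5 of 8 tested Cajal-Retzius markers were called higher in null L6 and 2 lower, beside 42.4% and 41.8% of all genes. WT L5, where Cyp26b1 and Aldh1a3 were highest, had Cajal-Retzius sums of 453 to 460 CPM, below those of WT L6. All 9 of these markers were called lower in WT L5 than in WT L6 and 0 higher, beside 43.4% and 42.2% of all genes. Members of the lists differed among themselves: in the Cajal-Retzius list Ebf2 was 6.66-fold and Trp73 3.77-fold lower in null L6. In the layer 6 and subplate list 3 of 13 markers, named after their values were seen, had means in the order of Cyp26b1. For null L6, WT L6 and WT L5 these were Cplx3 (0.0225, 0.381 and 5.03 CPM), Moxd1 (1.19, 2.16 and 3.29 CPM) and Hs3st4 (34.3, 64.7 and 78.4 CPM). The other 10 did not have that order and were called lower in WT L5 than in WT L6, beside 43.4% of all genes. Among them was Tle4 (101, 206 and 71.8 CPM). Cplx3 was below the filter on low counts between null L6 and WT L6. The part of layer 6, subplate and Cajal-Retzius cells in the result was not tested.

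The genes whose levels over the 12 libraries ran most like Cyp26b1, by Pearson correlation of log2 CPM among named genes with a mean of at least 5 CPM, were Baiap2 (r = 0.984), Spsb1 (0.983), Fam171b (0.982), Hist1h4m (0.981) and Hs3st2 (0.978). Over the 8 layer 6 libraries alone their correlations were 0.973 to 0.985. The libraries fall into 3 groups, so these values mostly repeat the differences between groups. Of the 5 genes only Hs3st2 was called between WT L5 and WT L6, where 85.5% of all genes were. The level in null L6 against WT L6 was 1.395-fold lower for Baiap2, 1.72-fold for Spsb1 and 1.275-fold for Fam171b. It was 7.57-fold lower for Hist1h4m and 1.82-fold for Hs3st2, beside 9.88-fold for Cyp26b1. Hs3st2, a heparan sulfate sulfotransferase gene, had 21.01 ± 1.53 CPM in WT L6, 11.5 ± 1.497 in null L6 and 25.9 ± 1.33 in WT L5 (n = 4 each). Hist1h4m, at 6.46 ± 0.917, 0.857 ± 0.124 and 7.76 ± 1.14 CPM, belongs to a histone family with near-identical copies, so its counts are uncertain. Among the 9 retinoid genes themselves, Aldh1a3 came closest to Cyp26b1 (r = 0.93) and Crabp1 ran most opposite (r = -0.74), each over the 12 libraries.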

How the data were processed

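RNA was measured in 12 libraries. The deposited count table gives the number of reads for each gene, not normalized. The submitters' processing notes name STAR 2.5.2b, HTSeq, bedtools and build mm9. Annotation and strand setting: not given in the sources used here. Thus reads of overlapping genes on opposite strands may not be separated. The authors also deposited normalized scores, rounded to whole numbers by steps not stated, with a median of 23 in all 12 columns. That table served only as an alternative, as log2(score + 1). Peak lists of TBR1 were not used, since their mm9 coordinates could not be joined to gene tables in GRCm38.

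Counts were fitted with edgeR 4.0.16 in R 4.3.3 (TMM, filterByExpr by group, quasi-likelihood F-test, 4 against 4 libraries), adjusted by Benjamini-Hochberg over all genes tested. The code was tested on simulated counts with 200 changed genes. Levels are CPM on TMM-scaled library sizes over the 12 libraries. All 24015 rows entered the totals, and 0 columns were unmatched. DESeq2 1.42.0 and limma 3.58.1 served for alternatives.

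The genes and lists were chosen with earlier results of these data known. Named were the 9 genes, Tbr1, up to 4 called genes per role and list with the smallest adjusted p, of which the text gives a part, and the 5 genes most like Cyp26b1. Rarg, Hoxb4, Cyp26a1, Cyp26c1 and the uncalled values of Aldh1a1, Stra6, Rxrb and Thra were added outside this rule after their values were seen. Some listed genes enter the counts but are not reported here by name or plotted.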

Additional observations from a re-analysis of the deposited data

Results flagged for a closer look

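Crabp1 in null L6 replicate 3 stood at 5.62 CPM, apart from the other 3 null L6 libraries at 4.75 to 4.86 CPM. The gap was 0.875 of the group's range, above the 95% limit of Dixon's test for 4 values. Of 27 groups tested (9 genes in 3 groups), chance would flag about 1.4. Without that library the log2 fold change of Crabp1 between null L6 and WT L6 was 1.37, beside 1.43 with it.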

How the results depend on the processing

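Cyp26b1, Aldh1a3 and Crabp1 kept their direction and stayed past the threshold between null L6 and WT L6 in all 20 alternatives run on the counts (log2 fold changes of -3.70 to -2.98, -2.52 to -1.89 and 1.251 to 1.62). Rxra was called in 7 of these 20. Meis2, Rlbp1, Thrb and Nr4a2 were called in 20 of 20. With library pairs summed the calls of Dhrs3 (adjusted p = 0.117), Foxc1, Ntrk2, Zfp423, Ncoa2 and Aldh1a2 were lost.

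With pairs summed, null L6 against WT L6 gave 479 called genes, 1 further pathway gene and 1 target gene. With the pair as a random block in limma it gave 1277 genes. With null L6 replicates 1 and 2 alone, or WT L6 replicates 1 and 2 alone, 8 further pathway genes were called. Leaving out 1 library at a time gave 1632 to 1838 genes, 4 to 7 pathway genes and 5 to 6 target genes. The same gave 12520 to 12850 genes and 31 to 34 pathway genes for WT L5 against WT L6, and 12380 to 12688 and 28 to 32 for null L6 against WT L5. The cause of these shifts was not tested.

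Replicate numbers did not pair the samples (correlations of same-numbered deviations from -0.07 to 0.02). The replicate block gave 1526 genes, 4 pathway and 4 target genes for null L6 against WT L6, with Rxra at -0.20 no longer called (adjusted p = 0.0701). For WT L5 against WT L6 it gave 12675 and 31, and for null L6 against WT L5 12551 and 28.

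Signs turned only for values that were not called. Leaving out 1 library at a time moved Rdh10 from -0.082 to 0.026 and Rara from -0.011 to 0.070 for null L6 against WT L6, and Rdh10 from -0.15 to 0.017 for WT L5 against WT L6 and from -0.050 to 0.12 for null L6 against WT L5. For null L6 against WT L6, Rara became -0.0086, -0.011 or -0.0046 without WT L6 replicate 2, WT L6 replicate 4 or null L6 replicate 1, and -0.024 with WT L6 replicates 1 and 2 alone. Rdh10 became 0.014 or 0.026 without WT L6 or null L6 replicate 3, and 0.018 or 0.062 with null L6 or WT L6 replicates 1 and 2 alone. Crabp2 became 0.16 with null L6 replicates 3 and 4 alone, and Rarb -0.041 with WT L6 replicates 1 and 2 alone. For WT L5 against WT L6, Rdh10 became 0.017 without WT L5 replicate 4, 0.057 with batch B alone and 0.020 with WT L6 replicates 1 and 2 alone. For null L6 against WT L5, Rdh10 became -0.0077 at a filter of 30 counts in 4 libraries, -0.016 and -0.050 without null L6 replicate 1 or WT L5 replicate 4, -0.087 with batch B alone and -0.0043 with null L6 replicates 3 and 4 alone, and Crabp2 became -0.16 with null L6 replicates 1 and 2 alone.

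From the authors' scores, 26 of 27 differences of the 9 genes had the same sign, and 14 moved by more than the spread between replicates or fell to 0. Null L6 against WT L6 gave -2.72 for Cyp26b1, -1.0 for Aldh1a3, 1.095 for Crabp1 and 0 for Rdh10, and WT L5 against WT L6 gave 0.15 for Crabp1, beside 0.63 from the counts. These low whole-number scores carry a pseudocount of 1. That table and the settings with 1 null L6 pair alone were chosen after seeing the data. The 3 alternatives on TBR1 regions were not run. Aldh1a3, at 12 to 14 counts per null L6 library, is the value most limited by depth.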
